A study of Mus musculus with 8 samples.

Results

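The genes described here build the mitotic spindle and the kinetochore, condense the chromosomes and divide the cell. They are 48 genes of 37982 in the authors' deposited table, taken by an exact match of the gene name to a written list of members. RNA had been sequenced from the ventricles of C57BL/6 mice at postnatal day 7, in 3 genotype groups. Wild type had 2 samples. The double mutant had 3 samples and had alterations of Mkl2 and Myh7. The triple mutant had 3 samples, with the same 2 genes altered and Nkx2-5 besides, as is known of the study. The design text names wild type against triple mutant for the diseased state and double against triple mutant for the Nkx2-5 modifier, and double mutant against wild type is the comparison that remains. The labels do not say whether the samples came from separate litters, nor give the sex of the pups, so p-values measure only the spread between the libraries that the authors entered in their test.

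A dividing cell enters mitosis when kinases such as Plk1 and Aurka become active, and condensin together with topoisomerase II compacts each chromosome. The kinetochore, built on the centromere, binds spindle microtubules. The spindle checkpoint holds the cell back from anaphase until the kinetochores are attached. Anaphase then begins when Cdc20 activates the anaphase-promoting complex, which destroys securin (Pttg1) and frees separase (Espl1), and the central spindle and anillin complete cytokinesis. In mouse ventricle, heart muscle cells stop dividing in the first weeks after birth, while endothelial cells and fibroblasts go on dividing. Many mitotic genes are transcribed together in G2 phase through a promoter element named CHR (cell cycle genes homology region), which binds the MuvB complex, and through CCAAT boxes, which bind NF-Y. MuvB acts with B-Myb (Mybl2) and FoxM1 in the dividing cell and with other partners as the DREAM repressor in the resting cell.

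Promoters are shown first, because most members share at least 1 of these 2 motifs and the rule that chose the genes did not use sequence. The first 5 are those of the members called higher in the triple than in the double mutant that have a CHR on their own strand after the start, so they were picked for the motif and do not stand for all called members. Of the 14 members called in any comparison, 13 have a promoter in the table: 6 hold a CHR, 3 a CCAAT box alone and 4 neither. Sequences are from RefSeq promoters of the GRCm38.p6 build, which run from 250 bases before to 50 after each annotated start, read 5′ to 3′ along the gene, and 40 of the 48 members were matched by symbol. Capitals mark a CHR (searched as TTTGAA or TTCGAA) or a CCAAT box (searched as CCAAT), and TTCAAA or ATTGG marks a match on the opposite strand. Positions count from the start, with the first transcribed base as 1. In Cdca3 a further CCAAT box runs across the start and is left in lower case.
Cenpf, bases -100 to -1, chr1:189688087-189688186, minus strand: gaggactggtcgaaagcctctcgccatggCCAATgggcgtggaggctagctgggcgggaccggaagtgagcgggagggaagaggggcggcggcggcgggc
Cenpf, bases 1 to 30, chr1:189688057-189688086, minus strand: agTTTGAAtcgctcgtgctggtcggggagg
Cdca3, bases -100 to -1, chr6:124830076-124830175, plus strand: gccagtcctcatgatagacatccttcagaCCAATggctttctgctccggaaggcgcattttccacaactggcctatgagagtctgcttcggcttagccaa
Cdca3, bases 19 to 48, chr6:124830194-124830223, plus strand: cgtggagggaagTTTGAAactccgggcttt
Plk1, bases -100 to -1, chr7:122159335-122159434, plus strand: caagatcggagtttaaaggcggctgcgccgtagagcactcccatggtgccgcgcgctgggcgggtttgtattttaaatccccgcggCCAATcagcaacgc
Plk1, bases 19 to 48, chr7:122159453-122159482, plus strand: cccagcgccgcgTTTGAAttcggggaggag
Hmmr, bases -100 to -1, chr11:40733438-40733537, minus strand: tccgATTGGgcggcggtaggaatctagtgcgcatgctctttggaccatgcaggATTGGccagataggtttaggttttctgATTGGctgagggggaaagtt
Hmmr, bases 1 to 30, chr11:40733408-40733437, minus strand: gaggtaaaTTTGAAttcaggcgagctgaca
Anln, bases -100 to -1, chr9:22389207-22389306, minus strand: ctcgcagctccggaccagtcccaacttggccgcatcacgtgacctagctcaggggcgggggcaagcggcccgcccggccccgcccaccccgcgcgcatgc
Anln, bases 17 to 46, chr9:22389161-22389190, minus strand: tgaaaTTCAAAtTTTGAAcggccgtggtag
Anln held 2 CHR matches and no CCAAT box in its window, and Hmmr held 5 CCAAT boxes, of which 3 lie in the bases shown.

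Neither motif was found anywhere in the 300-base window of 8 of the 40 matched members (20%), namely Mad2l1, Birc5, Cenpt, Nuf2, Nusap1, Pttg1, Mybl2 and Ncaph, against 53.6% of all genes. Of these, 2 are shown for contrast, since Cenpt had the largest rise of triple over double mutant and Pttg1 that of double mutant over wild type.
Cenpt, bases -100 to -1, chr8:105852009-105852108, minus strand: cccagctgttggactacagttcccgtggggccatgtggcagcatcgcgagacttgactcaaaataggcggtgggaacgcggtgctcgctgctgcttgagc
Pttg1, bases -100 to -1, chr11:43425982-43426081, minus strand: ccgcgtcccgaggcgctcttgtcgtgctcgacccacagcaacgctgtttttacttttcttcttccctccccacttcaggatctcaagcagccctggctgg
No match says only that these letters are not in this window.

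Among the 40 matched members, 27 (67.5%) had a CHR in at least 1 listed promoter, compared with 21.7% of all 27025 genes with a promoter in the RefSeq table. A CCAAT box was found in 29 members (72.5%), against 41.1% of all genes. Both motifs were found in 24 members (60%), against 8.61% of all genes. The CHR lay on the gene's own strand between bases -30 and 50 in 18 members (45%), against 2.74% of all genes, and 18 members (45%) had at least 2 CCAAT boxes, against 13.3%. A TATA box, searched as TATAAA, was found in 1 member (2.5%) against 15.7% of all genes. E2F sites, searched as TTTCCCGC, TTTCGCGC, TTTGCCGC or TTTGGCGC, were found in 3 members (7.5%) against 2.6% of all genes. Every motif was searched on both strands, and no spelling of one motif contains a spelling of another. A match is a description of the sequence and not a measured binding site.

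**Figure D1:**
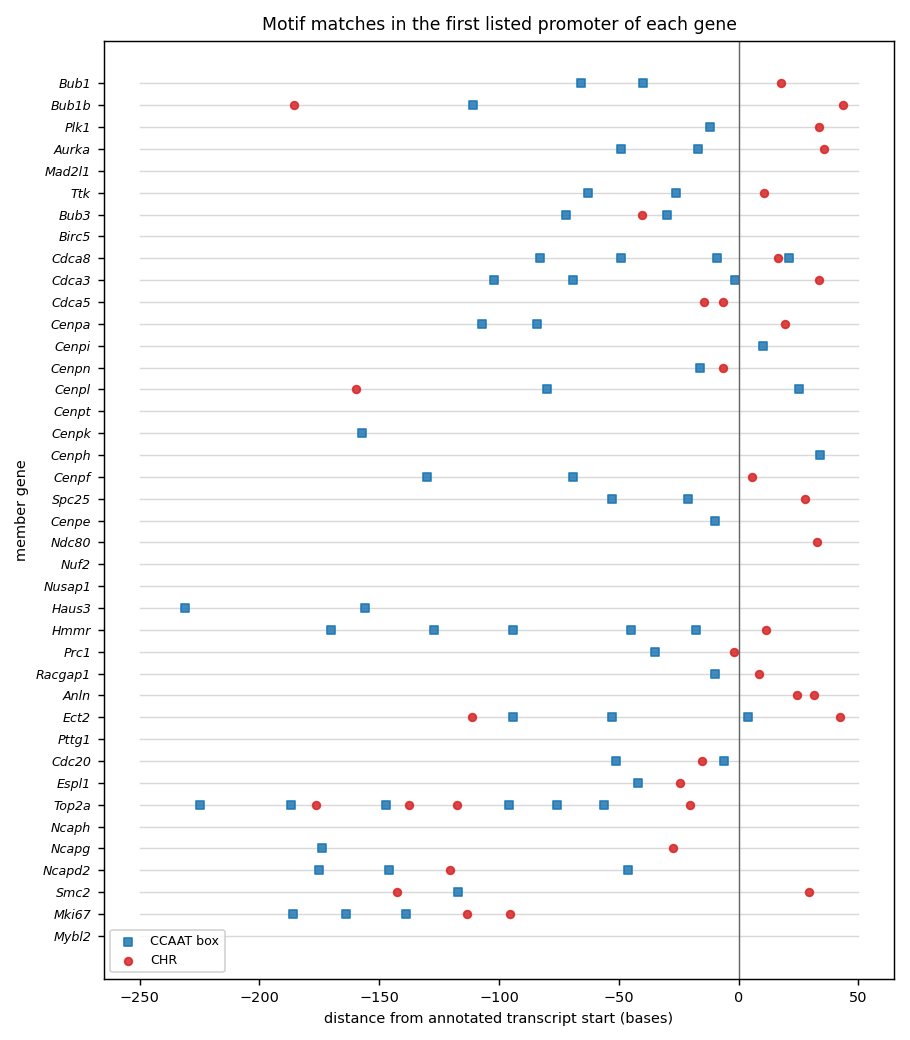
Positions of CHR matches (circles) and CCAAT box matches (squares) in the first listed promoter of each of the 40 matched members, with distance from the annotated transcript start in bases on the x axis and genes in order of role on the y axis. The CHR matches gather near or just after the start, and the CCAAT boxes lie mostly upstream.

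Levels are given as FPKM (fragment counts scaled to transcript length and library size), 1 value per gene and group, so no value per sample and no SD can be given, and the read depth is unknown. Levels, fold changes, p-values and q-values of single genes are all those of the authors' deposited table, and levels in a row are in the order wild type, double mutant, triple mutant. In wild type, 47 members had an estimate and ranged from 1.03 for Cdc25c to 119 for Prc1, with a median of 10.01. Double mutants had a median of 7.55 and triple mutants of 12.1. At least 45 members reached an FPKM of 1 in each group. Bub3, the checkpoint protein that carries Bub1 to kinetochores, was listed at 0 in every group because its locus had too many fragments for the authors' estimate. The same locus is given to 41 other genes, all with the same failed status, so the level of Bub3 itself is unknown. Mki67 had the same status in the triple mutant. Cenph was below the authors' minimum for a test in every comparison, and 19 members lie in loci that another gene shares in the file, so that reads may have been split or joined there.

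**Figure D2:**
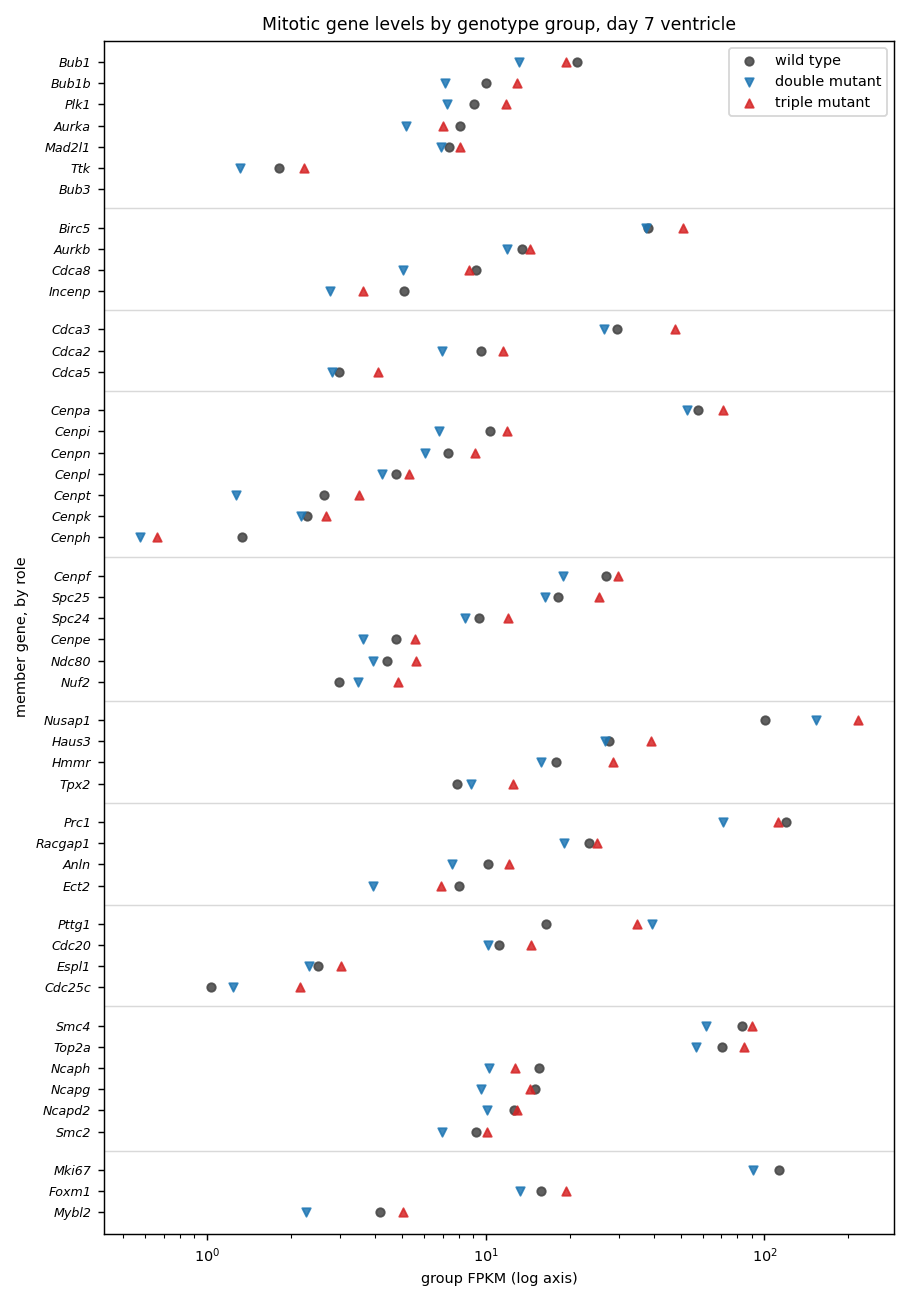
Group FPKM of each member on a log axis, with 1 marker per genotype group and genes grouped by role, sorted by wild-type level within a role. The double mutant (downward triangle) lies lowest of the 3 groups for most genes, and the triple mutant (upward triangle) lies highest for most.

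The triple mutant was compared with the double mutant to ask what the Nkx2-5 alteration adds. Of 45 tested members, 44 had a higher level in the triple mutant and 1 a lower one. The authors' test (Cuffdiff) called 9 of them higher at a q-value under 0.05: Plk1, Cdca3, Cenpe, Cenpf, Cenpi, Cenpt, Hmmr, Anln and Haus3. None was called lower, nor was any lower at an unadjusted p under 0.05, at which 32 were higher. At that unadjusted p, 538 of all 12786 tested genes were higher and 543 lower. The background in this comparison was 0.704% of 12786 tested genes called higher and 0.547% called lower. At the authors' own mark, a q-value under 0.1, 14 members were higher and none lower, against 1.02% and 0.962% of all genes. The median log2 fold change of the tested members was 0.55 (1.47-fold), and its quartiles were 0.44 and 0.69, while the median of all tested genes was -0.001.

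The error given with a log2 fold change below (±) is the standard error that the deposited p-value implies, and it is an upper limit where q = 0.0066, since p stops there at 5e-05. Its median over the members was 0.23 for triple against double mutant. The deposited test score gives a larger error, with a median of 0.41, when it is read as a normal deviate, and on that reading no member was called in any of the 3 comparisons. That alternative was chosen after seeing the data, and all calls here rest on the deposited p-values.

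**Figure D3:**
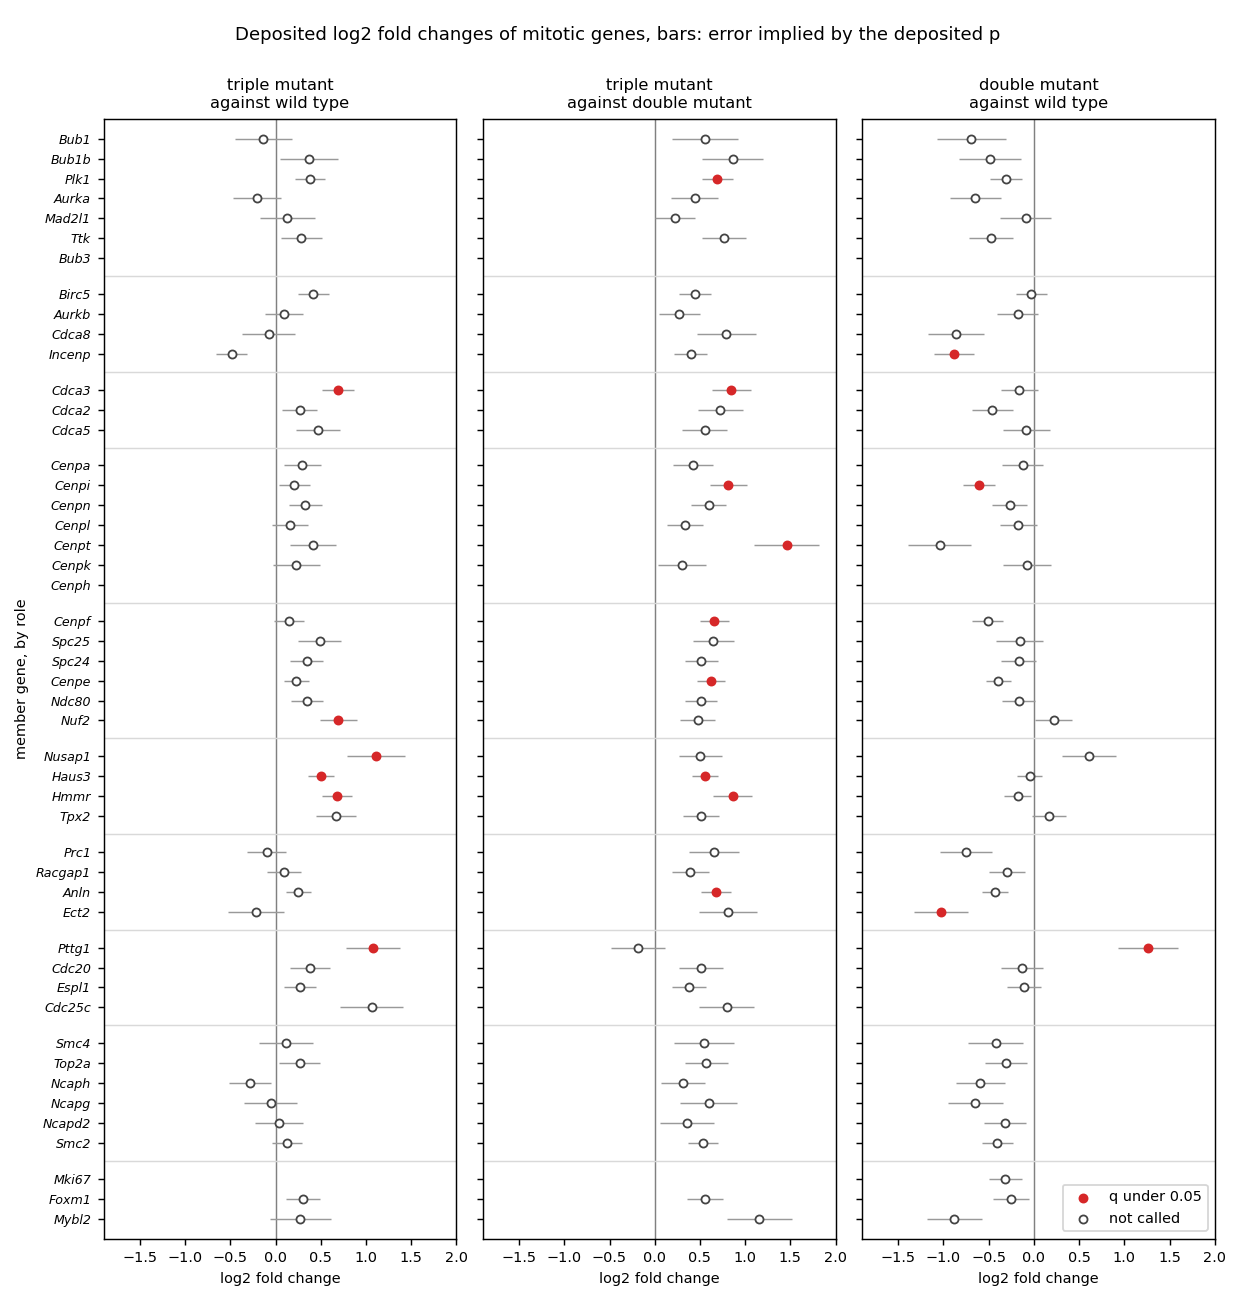
Log2 fold change of each tested member in the 3 comparisons, with bars of 1 implied standard error to each side, filled points for q under 0.05 and open points for genes not called. In the middle panel (triple against double mutant) all points but that of Pttg1 lie to the right of 0, and in the right panel (double mutant against wild type) 41 of 45 lie to the left.

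Among the checkpoint and mitotic kinases, Plk1 rose. Plk1, the polo-like kinase that drives mitotic entry and spindle assembly (ENSMUSG00000030867, mm9 chromosome 7, 129302951 to 129313389), had FPKM values of 9.04 in wild type, 7.29 in double mutants and 11.8 in triple mutants per the authors' deposited table. Its log2 fold change was 0.69 ± 0.17 for triple against double mutant (q = 0.0066) and 0.38 ± 0.17 for triple mutant against wild type (q = 0.299). The double mutant was the lowest group and the triple mutant the highest. Bub1, the checkpoint kinase with the highest wild-type level of this group, stood at 21.3, 13.2 and 19.4 in the same order in the authors' deposited table, and no difference passed (q = 0.585 for triple against double). Ttk, which starts checkpoint signalling at unattached kinetochores, stood at 1.82, 1.31 and 2.22 (q = 0.0727 for triple against double), and Bub1b, a subunit of the checkpoint complex that inhibits Cdc20, at 10.01, 7.12 and 13.0 (q = 0.192), in the authors' deposited table. Aurka, the centrosomal aurora kinase, and Mad2l1, the checkpoint protein Mad2, differed between triple and double mutant by 0.44 ± 0.26 and 0.22 ± 0.22 on the log2 scale and were not called. The 6 tested genes of this group had a median of 0.63 in that comparison, with all 6 above 0.

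The chromosomal passenger complex joins the kinase Aurkb with Incenp, survivin (Birc5) and borealin (Cdca8), and corrects wrong kinetochore attachments. Incenp, its scaffold (ENSMUSG00000024660, mm9 chromosome 19, 9946787 to 9974023), is given in the authors' deposited table as 5.07 in wild type, 2.75 in double mutants and 3.62 in triple mutants. It was lower in the double mutant than in wild type by a log2 fold change of -0.88 ± 0.22 (q = 0.0066, authors' deposited table). Against the double mutant the triple mutant stood higher by 0.40 ± 0.18 (q = 0.311), and against wild type it stood at -0.49 ± 0.17 (q = 0.118), the lowest value among the tested members in that comparison. So the triple mutant lay between the other groups for Incenp and was not called apart from either. Birc5 stood at 38.2, 37.5 and 51.0 in wild type, double and triple mutant in the authors' deposited table, with q = 0.202 for triple against double. Cdca8, in a shared locus, stood at 9.19, 5.04 and 8.73, and Aurkb at 13.5, 12.0 and 14.4, with no call. The ratio of Birc5 to Incenp FPKM was 7.53 in wild type, 13.6 in double mutants and 14.1 in triple mutants, while that of Birc5 to Aurkb was 2.82, 3.13 and 3.53. These ratios have no error of their own.

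Cdca3 rose in the triple mutant against either other group. It encodes a trigger of mitotic entry that directs the destruction of the kinase Wee1 (ENSMUSG00000023505, mm9 chromosome 6, 124779565 to 124783719). The authors' deposited table lists it at 29.6 in wild type, 26.5 in double mutants and 47.7 in triple mutants. That is a log2 fold change of 0.85 ± 0.22 against the double mutant and 0.69 ± 0.18 against wild type, each at q = 0.0114. The double mutant and wild type differed by less than the implied error (-0.16 ± 0.20, q = 0.872). Cdca2, a chromatin-bound targeting subunit of a protein phosphatase, stood at 9.58, 6.97 and 11.5 (q = 0.0981 for triple against double), and Cdca5, the cohesin protector sororin, at 2.98, 2.81 and 4.12 (q = 0.296), in the authors' deposited table.

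At the centromere and inner kinetochore, Cenpi and Cenpt rose in the triple mutant against the double mutant. Cenpt, which links centromeric chromatin to the Ndc80 complex (ENSMUSG00000036672, mm9 chromosome 8, 108351631 to 108375908), stood at 2.63 in wild type, 1.27 in double mutants and 3.50 in triple mutants per the authors' deposited table. Its 2.75-fold rise over the double mutant (log2 1.46 ± 0.36, q = 0.0066) was the largest among the tested members, at a level under an FPKM of 5 in every group. The same gene had the lowest value of the tested members for double mutant against wild type, -1.04 ± 0.35, which did not pass (q = 0.0903). Its locus is shared with Tsnaxip1, whose FPKM was 0 in wild type, 0.061 in double mutants and 0.017 in triple mutants. Cenpi (ENSMUSG00000031262, mm9 chromosome X, 130842623 to 130897178), another inner kinetochore subunit, stood at 10.3, 6.77 and 11.9 per the authors' deposited table. It was lower in the double mutant than in wild type (-0.61 ± 0.18, q = 0.0418) and higher in the triple than in the double mutant (0.82 ± 0.20, q = 0.0066), so that wild type and triple mutant differed by 0.21 ± 0.17 (q = 0.726). Cenpi is the X-linked gene among these, and the 437 tested X-linked genes had a median log2 fold change of 0.04 for triple against double mutant.

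Cenpa, the histone H3 variant that marks the centromere, had the highest wild-type level of this group, and stood at 57.7, 52.9 and 71.0 per the authors' deposited table (q = 0.441 for triple against double). Cenpn, which reads Cenpa nucleosomes, stood at 7.30, 6.06 and 9.16 (q = 0.077), and Cenpk and Cenpl, other subunits of the inner kinetochore network, differed by 0.30 ± 0.27 and 0.33 ± 0.20. Cenph, not tested, was listed at 1.34, 0.573 and 0.661. All 6 tested genes of the group were higher in the triple than in the double mutant, with a median of 0.51.

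The outer kinetochore holds the microtubule. Cenpf, a large kinetochore and nuclear envelope protein of G2 and mitosis (ENSMUSG00000026605, mm9 chromosome 1, 191464478 to 191511965), stood at 27.0 in wild type, 18.9 in double mutants and 29.9 in triple mutants per the authors' deposited table. It rose by 0.66 ± 0.16 in the triple against the double mutant (q = 0.0066), and the double mutant lay below wild type by a value that did not pass (-0.51 ± 0.17, q = 0.0992). Cenpe, the kinetochore motor that carries chromosomes to the spindle equator (ENSMUSG00000045328, mm9 chromosome 3, 134875527 to 134936504), stood at 4.76, 3.63 and 5.58 per the authors' deposited table, with a rise of 0.62 ± 0.15 (q = 0.0066). For both genes wild type and triple mutant were close, with log2 fold changes of 0.15 ± 0.17 for Cenpf and 0.23 ± 0.14 for Cenpe.

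Of the 4 subunits of the Ndc80 complex, which couples the kinetochore to the microtubule end, 3 had their lowest level in the double mutant and Nuf2 did not. Ndc80 stood at 4.42, 3.93 and 5.61 and Spc24 at 9.48, 8.43 and 12.0 in wild type, double and triple mutant in the authors' deposited table. The ratio of Spc24 to Ndc80 FPKM was 2.15 in each group. Nuf2 (ENSMUSG00000026683, mm9 chromosome 1, 171428065 to 171461595) stood at 2.99, 3.47 and 4.84 per the authors' deposited table, so its double mutant value lay above wild type and not below it. Nuf2 was the subunit called for triple mutant against wild type (0.70 ± 0.20, q = 0.0356), and for triple against double mutant it did not pass (0.48 ± 0.19, q = 0.219). Spc25 stood at 18.1, 16.2 and 25.5, with q = 0.12 for triple against double and 0.368 against wild type. All 6 outer kinetochore genes were higher in the triple than in the double mutant, with a median of 0.57 and a range of 0.48 to 0.66.

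Spindle assembly genes were the role group with the most calls for triple mutant against wild type, 3 of 4. The background there was 1.16% of 12986 tested genes called higher. Of the 3, Haus3 and Nusap1 lie in shared loci. Hmmr, a microtubule-binding protein of the spindle poles (ENSMUSG00000020330, mm9 chromosome 11, 40514890 to 40546939), is given in the authors' deposited table as 17.9 in wild type, 15.8 in double mutants and 28.7 in triple mutants. It rose by 0.86 ± 0.21 against the double mutant and by 0.68 ± 0.17 against wild type, both at q = 0.0066. Haus3, a subunit of augmin, which makes microtubules branch from those already in the spindle (ENSMUSG00000079555, mm9 chromosome 5, 34349847 to 34512097), stood at 27.7, 26.8 and 39.3 per the authors' deposited table. It was called against both groups, by 0.55 ± 0.15 over the double mutant (q = 0.015) and 0.51 ± 0.14 over wild type (q = 0.0271). For Hmmr and Haus3 the double mutant differed from wild type by -0.18 ± 0.15 and -0.05 ± 0.14, with no call. The Haus3 locus is shared with the polymerase gene Poln, whose FPKM was 0.088 in wild type and 0.142 in triple mutants, and with a U6 gene listed at 0.

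Nusap1, a microtubule bundling protein around chromosomes (ENSMUSG00000027306, mm9 chromosome 2, 119435248 to 119476980), stood at 101 in wild type, 153 in double mutants and 217 in triple mutants per the authors' deposited table, the highest member level in both mutants. Its 2.16-fold value against wild type (log2 1.11 ± 0.32, q = 0.0342) was the largest of the tested members in that comparison, and the steps from wild type to double mutant (0.61 ± 0.29, q = 0.358) and from double to triple mutant (0.50 ± 0.24, q = 0.342) did not pass. Its locus is shared with Oip5, which stood at 2.72, 2.01 and 2.195, and with a small RNA gene listed at 0. Tpx2, which activates Aurka on spindle microtubules, stood at 7.87, 8.83 and 12.6 per the authors' deposited table (triple mutant q = 0.0868 against wild type, and 0.201 when set against double mutants).

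In the central spindle and cytokinesis group, Anln rose and Ect2 fell, in different comparisons. Anln encodes anillin, the scaffold of the contractile ring (ENSMUSG00000036777, mm9 chromosome 9, 22135658 to 22193650), and stood at 10.2, 7.55 and 12.1 per the authors' deposited table. Its rise in the triple against the double mutant was 0.68 ± 0.17 (q = 0.0066), and double mutant against wild type gave -0.43 ± 0.14 (q = 0.0947). Ect2, the exchange factor that activates RhoA at the cell equator (ENSMUSG00000027699, mm9 chromosome 3, 26996144 to 27052800, a locus shared with a small RNA gene listed at 0), stood at 8.03 in wild type, 3.95 in double mutants and 6.91 in triple mutants per the authors' deposited table. It fell by 1.03 on the log2 scale (± 0.30, q = 0.0356) from wild type to double mutant, and the triple mutant was not called apart from either group (q = 0.205 against the double, 0.896 against wild type). Prc1, which bundles the central spindle and had the highest wild-type level of all members, stood at 119, 70.9 and 111, and Racgap1, a subunit of centralspindlin, at 23.4, 19.1 and 25.02, with no call. All 4 genes had their lowest level in the double mutant.

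Pttg1 was the single tested member that stood lower in the triple than in the double mutant. It encodes securin, the inhibitor of separase (ENSMUSG00000020415, mm9 chromosome 11, 43233752 to 43239753, an unshared locus), and is given in the authors' deposited table as 16.5 in wild type, 39.5 in double mutants and 34.8 in triple mutants. It rose by 1.26 ± 0.33 in the double mutant (q = 0.015) and by 1.08 ± 0.30 in the triple mutant (q = 0.0244), each against wild type. Between the mutants it differed by -0.18 ± 0.30 (q = 0.916), the lowest value among the tested members and within its error. Of the 14 members called anywhere, Pttg1 alone was called against wild type in both mutants. Both calls rest on the same 2 wild-type samples, so they are not independent. How many of all tested genes were called in both was not counted, so this overlap has no background. Espl1, the separase that securin inhibits, stood at 2.51, 2.33 and 3.03, and Cdc20 at 11.2, 10.2 and 14.6, with no call in the authors' deposited table. Cdc25c, the phosphatase that activates Cdk1, stood at 1.03, 1.24 and 2.15, with q = 0.0911 for triple mutant against wild type. It was below the minimum for a test of double mutant against wild type. The Cdc25c locus is shared with Gm3550, which stood at 1.18, 0.339 and 0.747.

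Condensin and topoisomerase genes had no call by Cuffdiff in any comparison. At an unadjusted p under 0.05, 2 were higher in the triple than in the double mutant, 3 were lower in the double mutant than in wild type, and none differed between triple mutant and wild type. At that p, 538 of 12786 tested genes were higher in the triple than in the double mutant. Of 13034 tested genes, 894 were lower in the double mutant than in wild type. Between triple mutant and wild type, 965 were higher and 612 lower of 12986. Smc4, the condensin ATPase with the highest wild-type level of the group, stood at 83.1, 61.9 and 90.1 in wild type, double and triple mutant in the authors' deposited table, and Smc2, its partner, at 9.22, 6.96 and 10.1. The ratio of Smc4 to Smc2 FPKM was 9.01, 8.89 and 8.93, and both loci are shared with other genes. Smc2 came nearest to a call for triple against double mutant (0.54 ± 0.17, q = 0.0607). Top2a, the topoisomerase that untangles sister chromatids, stood at 70.5, 57.0 and 84.7, and the condensin subunits Ncapg, Ncaph and Ncapd2 differed between triple and double mutant by 0.59 ± 0.32, 0.31 ± 0.25 and 0.36 ± 0.29. Top2a, Ncapg and Ncapd2 lie in shared loci too, with Lcorl (16.9, 13.0 and 14.5) beside Ncapg and Scarna10 (663, 687 and 567) beside Ncapd2. All 6 genes were higher in the triple than in the double mutant (median 0.54), and all 6 were lower in the double mutant than in wild type (median -0.41). Ncaph and Ncapg stood lower in the triple mutant than in wild type, by values within 2 implied errors.

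Mybl2 and Foxm1, the transcription factors named above as partners of MuvB, form a role group with the proliferation marker Mki67. Their part in the values of the other members was not tested. Mybl2 (B-Myb) stood at 4.16 in wild type, 2.26 in double mutants and 5.03 in triple mutants per the authors' deposited table. Its difference between triple and double mutant was second in size to that of Cenpt and did not pass (1.15 ± 0.36, q = 0.0629). Foxm1 stood at 15.8, 13.2 and 19.4 (0.55 ± 0.20, q = 0.14) in the authors' deposited table. Mki67, which coats mitotic chromosomes and is widely used as a marker of dividing cells, was listed at 113 in wild type and 90.9 in double mutants (-0.32 ± 0.18, q = 0.501) and has no estimate in the triple mutant.

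The triple mutant was compared with wild type to describe the diseased state. Of 45 tested members, 37 were higher and 8 lower in the triple mutant, and 6 were called higher: Cdca3, Hmmr, Haus3, Nuf2, Nusap1 and Pttg1. No member was called lower by Cuffdiff. At an unadjusted p under 0.05, 11 members were higher and 1 lower, against 965 and 612 of all 12986 tested genes. In this comparison 1.16% of 12986 tested genes were called higher and 0.362% lower. At a q-value under 0.1, 8 members were higher, against a background of 1.97% higher and 0.778% lower. The median log2 fold change was 0.27, with quartiles at 0.12 and 0.41, while all tested genes had a median of -0.003. Without the members in shared loci, 4 of 28 were called higher, with a median of 0.27.

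The double mutant was compared with wild type as the remaining pair. Of 45 tested members, 41 were lower and 4 higher in the double mutant. Incenp, Cenpi and Ect2 were called lower and Pttg1 higher, against 0.767% of 13034 tested genes called lower and 1.89% called higher. At a q-value under 0.1, 6 members were lower and 1 higher, against 1.43% and 2.98% of all genes. The median was -0.31, with quartiles at -0.51 and -0.13, and the median of all tested genes was -0.003. The role groups with the lowest medians were central spindle and cytokinesis (-0.59) and the chromosomal passenger complex (-0.52), and spindle assembly had a median of 0.06.

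The 3 comparisons share their groups, so they are not independent: a low level in the double mutant enters the second and the third with opposite sign, and the fold change of triple mutant against wild type is the sum of the other two on the log2 scale. In all, 14 members were called in at least 1 comparison. The share of all genes called in at least 1 comparison was not counted, so this number has no background beside it. In bulk ventricle, fewer dividing cells and less mitotic RNA per dividing cell cannot be told apart.

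**Figure D4:**
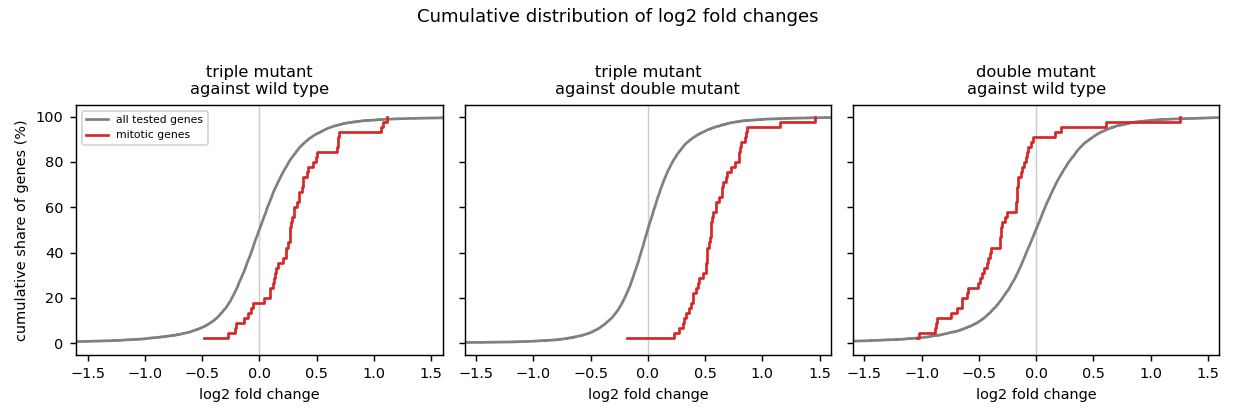
Cumulative share of genes (%) by log2 fold change, for the tested members (red) and all tested genes with a finite fold change (grey), 1 panel per comparison. The red curve lies right of the grey for triple against double mutant (medians 0.55 and -0.001) and, up to its top end, left of it for double mutant against wild type (medians -0.31 and -0.003).

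Members with and without a CHR were set side by side. For triple against double mutant, the 25 tested members with a CHR had log2 fold changes between 0.33 and 0.86 (median 0.59), all above 0, and 5 were called: Plk1, Cdca3, Cenpf, Hmmr and Anln. The 12 matched members without a CHR ranged from -0.18 to 1.46 (median 0.49), with 4 called: Cenpe, Cenpi and Haus3, which have a CCAAT box, and Cenpt. For double mutant against wild type, all 26 members with a CHR were below 0 (median -0.31), and the 12 without had a median of -0.08, with 3 above 0. For triple mutant against wild type, 2 of 25 with a CHR and 4 of 12 without were called, and the latter include Nuf2, Nusap1 and Pttg1, which hold neither motif. Outside the members, 1323 tested genes with a CHR had a median of 0.03 for triple against double mutant, and 7099 without had a median of -0.01. Of these, 19 with a CHR and 35 without were called higher. For triple mutant against wild type, 15 of 1338 such genes with a CHR and 87 of 7128 without were called higher. These are descriptions of each set of genes, and the difference between the sets was not tested.

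Other mitotic genes, from 6 lists with 106 of 110 symbols found in the table, gave 103 tested genes. For triple against double mutant, 85 of them were higher, 11 were called higher (10.7%) and none lower, nor was any lower at an unadjusted p under 0.05. Of all 12786 tested genes, 0.704% were called higher and 0.547% lower, and 543 were lower at that unadjusted p. The median was 0.25. Other spindle and cytokinesis genes held 7 of the 11 calls among 26 tested (median 0.48): Aspm, Cep55, Ckap2l, Gtse1, Mastl, Nek2 and Tacc3. Aspm, a spindle pole protein, stood at 24.2 in wild type, 19.95 in double mutants and 30.9 in triple mutants (q = 0.0066), and Tacc3, which stabilises kinetochore fibres, at 16.3, 13.8 and 24.2 (q = 0.0214), in the authors' deposited table. Levels of the midbody protein Cep55 were 13.04, 10.07 and 15.1 (q = 0.0114), and those of the spindle protein Ckap2l were 22.3, 18.7 and 26.3 (q = 0.0297), both in shared loci of the authors' deposited table. Gtse1, a microtubule-binding protein, had 4.27, 2.82 and 5.38 (q = 0.0114), the kinase Mastl 10.4, 8.0 and 11.1 (q = 0.0479) and the centrosomal kinase Nek2 15.7, 12.7 and 18.6 (q = 0.0342), per the authors' deposited table. All 7 had their lowest level in the double mutant and their highest in the triple mutant. Of 23 other kinetochore and centromere genes (median 0.40), Casc5 and Ccdc99 were called. Ccdc99, which brings dynein to kinetochores, had levels of 2.93, 2.04 and 4.40 (q = 0.0184, authors' deposited table). Casc5, the kinetochore scaffold that recruits Bub1, stood at 21.7, 14.5 and 20.6 per the authors' deposited table, so it was called higher in the triple than in the double mutant (q = 0.015) and lower in the double mutant than in wild type (q = 0.0066).

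The remaining 4 lists lay nearer to 0. The anaphase-promoting complex had 1 call of 15, Ube2c, its ubiquitin-conjugating enzyme, which stood at 16.1, 11.7 and 21.4 (q = 0.0066) in the authors' deposited table in a shared locus, and a median of 0.08. Other condensin and cohesin genes had 1 call of 17, the cohesin protector Sgol2, at 17.8, 14.9 and 23.2 (q = 0.0066, authors' deposited table, shared locus), and a median of 0.11. The other augmin and gamma-tubulin ring genes had no Cuffdiff call of 16 (median 0.18), and the MuvB core and B-Myb family none of 6 (median 0.22). In each of these 2 lists 1 gene was higher at an unadjusted p under 0.05, against 538 of all 12786 tested genes. For triple mutant against wild type, none of the 103 genes was called higher by Cuffdiff, against 1.16% of all tested genes. At an unadjusted p under 0.05, 18 were higher and 2 lower, against 965 and 612 of all 12986. The cohesin loader gene Mau2 was called lower (11.5, 8.66 and 7.70, q = 0.015, authors' deposited table, shared locus), against 0.362% of all tested genes. For double mutant against wild type, Casc5 and Mybl1, a relative of B-Myb (5.76, 2.12 and 3.19, q = 0.0342, authors' deposited table), were called lower and none higher. Of all tested genes, 0.767% were called lower and 1.89% higher. In that comparison 71 of the 103 were lower, with a median of -0.16. At an unadjusted p under 0.05, 21 were lower and 3 higher, against 894 and 1233 of all 13034 tested genes.

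**Figure D5:**
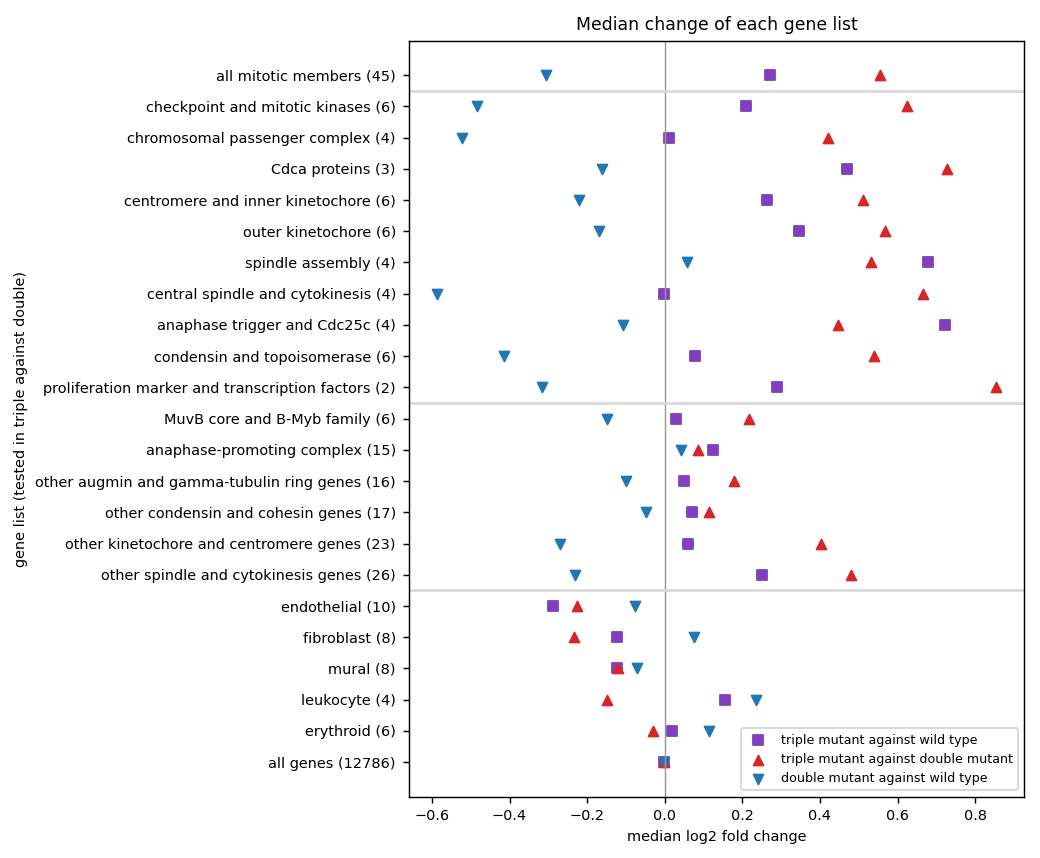
Median log2 fold change of all members, of each of the 10 roles, of the 6 other mitotic lists, of cell type marker lists and of all genes, with 1 marker per comparison and the number tested for triple against double mutant in parentheses. The cardiomyocyte list is left out because none of its genes has an estimate. The role groups lie between 0.42 and 0.85 for triple against double mutant, and all genes at -0.001.

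Cell type markers were read beside these values. All 10 heart muscle markers were listed at 0 in every group as failed estimates for too many fragments, so the labelled tissue could not be checked by their levels. Summed FPKM of the 10 endothelial markers was 752 in wild type, 755 in double mutants and 642 in triple mutants, and 9 of 10 were lower in the triple than in the double mutant, with a median of -0.23, no Cuffdiff call and 1 gene lower at an unadjusted p under 0.05. For fibroblasts, 8 of 10 markers had an estimate, with sums of 681, 744 and 619. All 8 were lower in the triple than in the double mutant (median -0.23, no call, 4 at an unadjusted p under 0.05). Of all 12786 genes tested in that comparison, 543 were lower at that p, 0.704% were called higher and 0.547% lower. Sums of the 9 leukocyte markers found were 19.7, 25.6 and 22.9, with Cd3e at 0 in wild type, and those of the 9 erythroid markers found were 376, 419 and 399, with Klf1 at 0 in the double mutant. The 8 mural markers summed to 578, 598 and 603, and of these Acta2, smooth muscle actin, was called higher (q = 0.0066) and Kcnj8, a pericyte potassium channel, lower (q = 0.0114) in the triple than in the double mutant in the authors' deposited table. The part of cell makeup in the mitotic values was not tested.

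Sex-linked transcripts also moved with the groups. Summed FPKM of 4 Y-linked genes was 21.9 in wild type, 73.7 in double mutants and 54.2 in triple mutants, and Xist, the X-inactivation RNA, stood at 1.21 in double mutants and 88.2 in triple mutants (q = 0.0066) in the authors' deposited table, with no estimate in wild type. Sex and genotype cannot be told apart here, and the part of sex in the mitotic values was not tested.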

How the data were processed

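RNA from 8 ventricle samples was sequenced. The submitters' processing notes name CASAVA 1.8, STAR 2.5.2, the mm9 build, Cuffdiff 2.2.1 and Cufflinks 2.2.1, without their order. Which annotation and normalization they used is not given in the sources used here. Per the labels' protocols, a stranded total RNA kit was used after DNase I treatment. The authors deposited 1 FPKM per gene and group with, for each comparison, the log2 fold change, the Cuffdiff statistic (a score), the p-value and the q-value. FPKM keeps no depth, so no depth or interval per sample can be given.

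The deposited log2 fold change was checked to be the plain log2 ratio of 2 FPKM values (to within 4.7215e-05), and the deposited q-values a joint Benjamini-Hochberg adjustment of the 3 comparisons (to within 5.26442e-07). The lowest p-value is 5e-05. Sample descriptions begin with 1 of 2 strings, both found in every group, and this possible batch could not enter any test. Rows with a failed estimate for too many fragments are missing. Samples have no values of their own here, so no further test was possible, and a deposited q-value under 0.05 is the call. The error shown is the absolute log2 fold change divided by the two-sided normal deviate of the p-value. The adjustment formula, applied within a comparison, was tested on simulated data, and the error formula was not. Those data took the implied error as true and held changes larger than that of any tested member. The deposited calls themselves were therefore not tested. File loci start from 0 and are printed as start plus 1.

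The 48 members and the gene lists were chosen with earlier results of these data known. Named with all group values are members called in any comparison, the highest member of each role in wild type and the largest and smallest value per comparison among tested members, and the called genes of other mitotic lists. Remaining members are named for completeness. Alternatives tried were a q threshold of 0.1, q-values adjusted within a comparison, minimum FPKM of 1 or 5, a pseudocount of 1, centring on all genes, untested members included, and shared loci left out. Python 3.11.15, pandas 2.3.3, numpy 2.4.6, scipy 1.17.1 and matplotlib 3.10.9 were used.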

Additional observations from a re-analysis of the deposited data

How the results depend on the processing

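At the authors' q threshold of 0.1, 14 members were called for triple against double mutant in place of 9, and 7 for double mutant against wild type in place of 4. Reading the deposited test score as a normal deviate, an alternative chosen after seeing the data, left 0 members called in each of the 3 comparisons. On that reading the whole table had 4 calls in each comparison with the triple mutant and 9 for double mutant against wild type. Unadjusted p was then under 0.05 for 8 members for triple against double mutant, 2 for double mutant against wild type and 6 for triple mutant against wild type. Which reading is right was not tested. The other 28 recomputed counts and medians kept their direction, with counts within 1.5 times. Member medians ranged from 0.50 to 0.56 for triple against double mutant, from -0.31 to -0.27 for double mutant against wild type and from 0.23 to 0.27 for triple mutant against wild type. All 19 calls of single members held when q-values were adjusted within the comparison. No paired analysis was possible because the file holds 1 value per gene and group. For the same reason no replicate could be left out, and 2 wild-type samples limit every comparison with wild type.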
